A study of Saccharomyces cerevisiae with 2 samples.

Results

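The genes described here encode ribosome assembly factors and the core proteins of small nucleolar ribonucleoproteins (snoRNPs). They were taken by a list of 48 systematic names, chosen for function, and all 48 were found among the 6666 coding sequences (CDSs) counted. By role they are 4 core proteins of C/D snoRNPs, 4 core proteins of H/ACA snoRNPs, the nucleolin-like protein Nsr1, 26 assembly factors of the large subunit and 13 proteins of the small subunit (SSU) processome. The study sequenced ribosome footprints, the mRNA fragments that ribosomes cover, to look for translation outside annotated genes. It has 1 group with 2 replicate libraries of Saccharomyces cerevisiae BY4742, a haploid laboratory strain of mating type alpha that carries deletions in HIS3, LEU2, LYS2 and URA3. Cells were in mid-exponential growth in synthetic medium and received cycloheximide, which arrests elongating ribosomes, at 50 µg/mL. The labels name neither separate cultures nor a second condition, so every comparison between the libraries concerns these libraries only, and a difference may be technical.

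Ribosomes are built in the nucleolus. C/D snoRNPs direct 2′-O-methylation and H/ACA snoRNPs direct pseudouridylation of ribosomal RNA (rRNA), each with a guide RNA and a shared set of core proteins. The SSU processome assembles on the nascent precursor transcript and releases the small subunit precursor, while a succession of helicases, GTPases, methyltransferases and scaffold proteins matures the large subunit until it is exported. In yeast these genes are known as a regulon that is strongly expressed in growing cells and shut down under stress, and many of their promoters are known to carry the motifs PAC (polymerase A and C) and RRPE (ribosomal RNA processing element).

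Replicate 1 held 23437283 reads in CDSs and replicate 2 held 2733591, an 8.57-fold difference in depth. Strain markers matched the label: the alpha-factor gene MF(ALPHA)1 had 31310 and 2806 reads, whereas the a-specific genes STE2 and MFA1 had 1 and 1 and 5 and 0. Of the deleted genes, LYS2 had 2 and 0 reads, LEU2 1 and 0, and URA3 none. HIS3, deleted only in part, had 1046 and 116 reads. Levels are given as footprint density, the reads per 1000000 CDS reads of the library (CPM) divided by the coding length in kilobases, because longer genes collect more reads. When 2 values are given, the first is replicate 1 and the second replicate 2.

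All 48 genes were read in both libraries, from 2256 to 26971 reads in replicate 1 and from 89 to 4059 in replicate 2. Together they took 1.80% and 1.53% of the CDS reads. Their median density was 200.2 in replicate 1 and 163 in replicate 2, against 21.97 and 12.6 over the 5993 CDSs with a known length. The median gene of this set was thus 9.11 and 12.9 times as dense as the median CDS. Ribosomal proteins, the product that these factors assemble, were denser still, with medians of 3303 and 2718 over 138 genes, 16.5 and 16.6 times those of the assembly genes. In CPM, with no correction for length, all 48 lay at or above the median of all CDSs in both libraries and 46 at or above the 75th percentile. The exceptions in replicate 2 were the small subunit proteins UTP15, at percentile 74.4, and IMP3, at percentile 68.0. Per kilobase, 47 of the 48 exceeded the median of all CDSs in both libraries, the exception being REA1 in replicate 1.

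**Figure D1:**
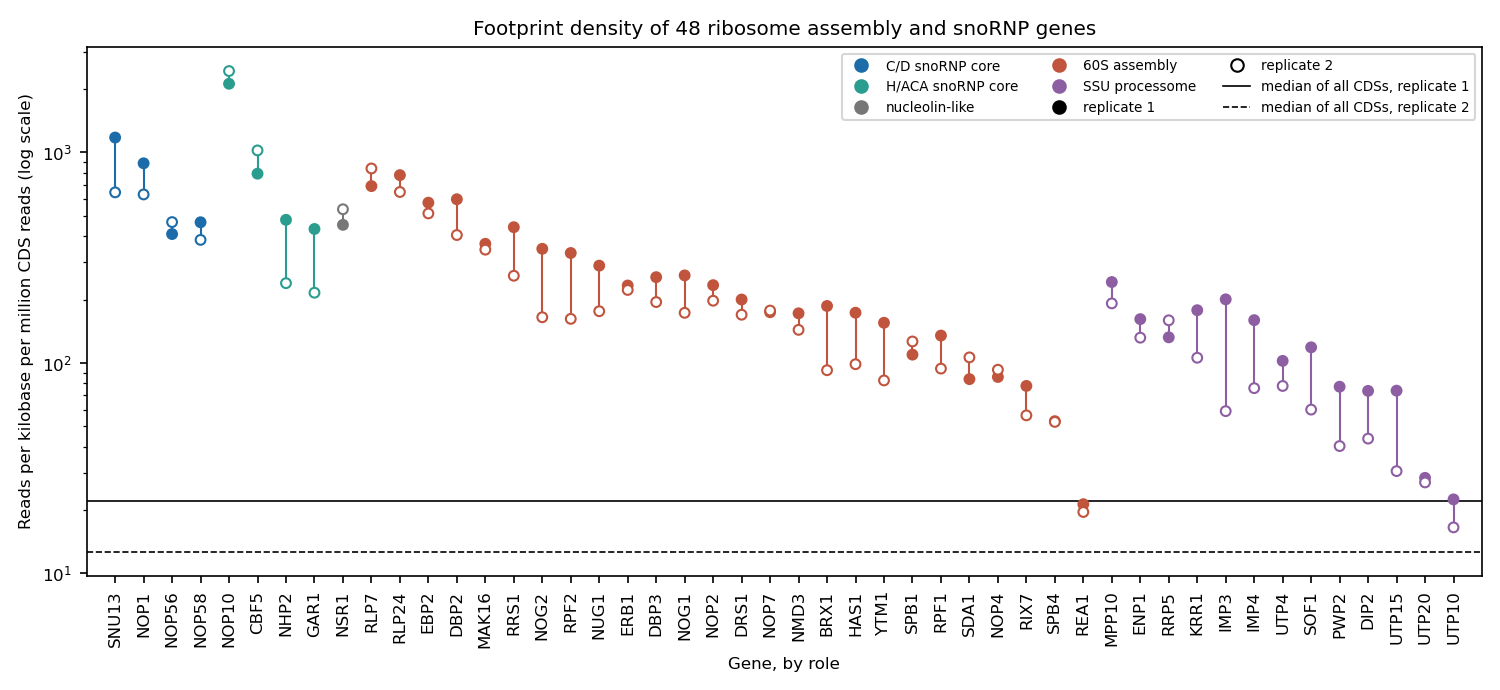
Footprint density of each gene (vertical log axis, CPM per kilobase) by role, filled circles for replicate 1 and open circles for replicate 2, joined by a line; horizontal lines mark the median of all CDSs. NOP10 lies highest at 2120 and 2437, and UTP10, REA1 and UTP20 lie lowest, between 16.5 and 28.4.

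Densities within the set spanned 99.5-fold in replicate 1 and 147-fold in replicate 2. Across the 48 genes log2 densities of the libraries had r = 0.946 (Pearson) and rho = 0.937 (Spearman), as a description of genes that share the same libraries. In the order of mean density, the ranges of the libraries failed to overlap for 6 of the 47 neighbouring pairs. Only 10 of the 48 genes were denser in replicate 2, and a shift common to most genes widens the ranges without changing order. Overlap alone therefore does not measure how firm a rank is. Some neighbours, such as NOP56 and NOP58, changed order between the libraries, so close ranks are not settled. Short genes were denser: log2 coding length and log2 mean density had r = -0.725 and rho = -0.603 over the 48 genes, against r = -0.425 and rho = -0.417 over 5124 CDSs that averaged 10 reads or more.

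The snoRNP core proteins were the densest role groups. The 4 C/D core genes had median densities of 677 and 549, and the 4 H/ACA core genes 635 and 631. Medians were 217 and 167 for the 26 large subunit factors and 119 and 59.97 for the 13 SSU processome genes. The ranges overlapped between roles: the densest large subunit factors exceeded several snoRNP genes, whereas the highest SSU processome density, 242 in replicate 1 and 192 in replicate 2, lay below every C/D core gene in the same library.

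Of the C/D core, NOP1 (YDL014W, chromosome IV, 427364 to 428347) encodes the methyltransferase, the yeast fibrillarin. It had 20482 and 1699 reads, densities of 888 and 632. NOP56 and NOP58 encode the paired scaffold proteins of the particle. NOP56 had 14538 and 1933 reads at densities of 409 and 467, and NOP58 had 16771 and 1613 reads at 466 and 384. Their order was reversed between the libraries, so these scaffold genes cannot be ranked. SNU13, which encodes the small protein that binds the kink-turn of the guide RNA and also serves in the spliceosomal U4 particle, had 10513 and 673 reads, at densities of 1177 and 646. Highest over lowest density within the C/D core was 2.88-fold in replicate 1 and 1.68-fold in replicate 2.

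The H/ACA core kept 1 order in both libraries. CBF5 (YLR175W, chromosome XII, 506134 to 507585), the pseudouridine synthase known as dyskerin in humans, had 26971 and 4059 reads, the most of the 48 genes in either library, at densities of 793 and 1023. NOP10, a CDS of only 177 nt on chromosome VIII from 241664 to 241840, had 8796 and 1179 reads and the highest density of the set, 2120 and 2437. GAR1 and NHP2, the other small core proteins, were lower. GAR1 had 6269 and 364 reads at densities of 433 and 215, and NHP2 5281 and 308 reads at 478 and 239. NOP10 over GAR1 was 4.90-fold in replicate 1 and 11.3-fold in replicate 2, so the particle's 4 genes were far from equal in density and the size of the gap differed between the libraries. Short CDSs were dense in general: among 5 classes of CDSs by coding length, the shortest, 78 to 675 nt, had median densities of 102 and 65.7, against 13.7 and 8.64 in the longest. NSR1, a nucleolin-like RNA-binding protein of the nucleolus, had 13214 and 1828 reads at 453 and 537.

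Among large subunit factors, RLP7 and RLP24 were the densest. RLP7, related to a ribosomal protein of the large subunit, had 15715 and 2223 reads at 692 and 839. RLP24, which holds the place of a ribosomal protein until the particle reaches the cytoplasm, had 10971 and 1064 reads at 780 and 649. EBP2, needed for early processing of the large subunit precursor, followed at 577 and 513 and the helicase gene DBP2 at 599 and 405. MAK16, another early factor of that precursor, had 368 and 345. The lowest were SPB4, a DEAD-box helicase, at 52.9 and 52.4, and REA1 (YLR106C, also known as MDN1, chromosome XII, 349006 to 363738). REA1 encodes the giant AAA ATPase that strips assembly factors from the particle. With 14733 nt its CDS is the longest of all that were tested, and its 7357 and 788 reads gave densities of only 21.3 and 19.6, near the median of all CDSs in replicate 1 and at percentile 58.3 in replicate 2. RIX7, the other AAA ATPase of the set, had 77.7 and 56.3.

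ERB1, NOP7 and YTM1, whose products form a trimer needed for processing of the large subunit precursor, had densities of 233 and 222, 174 and 177, and 155 and 82.5, a spread of 1.50-fold in replicate 1 and 2.69-fold in replicate 2. RRS1 and RPF2, which bring the 5S particle to the precursor, differed by 1.33-fold and 1.60-fold, with RRS1 at 441 and 259 and RPF2 at 333 and 162. The GTPase genes NOG1, NOG2 and NUG1 ranged from 260 to 348 in replicate 1 and from 165 to 176 in replicate 2. By contrast the 5 DEAD-box helicase genes, which unwind or remodel RNA, ran from SPB4 at 52.9 to DBP2 at 599 in replicate 1. Between these stood HAS1 with 173 and 98.6, DRS1 with 200.04 and 169 and DBP3 with 255 and 195. Each helicase kept its place in the order in both libraries. The methyltransferase genes NOP2 and SPB1, which modify rRNA of the large subunit, had 234 and 197 and 109 and 126. The remaining large subunit factors, NMD3, BRX1, RPF1, NOP4 and SDA1, lay between 83.7 and 186 in replicate 1 and between 92.3 and 144 in replicate 2. Of these NMD3 is the export adaptor, and BRX1 and RPF1 belong with RPF2 and IMP4 to the Brix family of rRNA-binding proteins.

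The SSU processome genes were the least dense. The proteins encoded by MPP10, IMP3 and IMP4 form a module that works with the U3 snoRNA. MPP10 had 10117 and 934 reads at densities of 242 and 192, the highest of the role. IMP3 had 2593 and 89 reads at 200.4 and 59.0, and IMP4 had 3266 and 181 reads at 160 and 75.8. RRP5, a large RNA-binding protein used in the maturation of both subunits, had the most reads of the role, 16087 and 2261, at 132 and 159. UtpA, the first subcomplex to bind the nascent transcript, was represented by UTP4 at 102 and 77.7, UTP15 at 73.8 and 30.6 and UTP10 at 22.5 and 16.5, a spread of 4.55-fold and 4.70-fold. The UtpB genes PWP2 and DIP2 were the closest of the 7 complexes examined, at 77.1 and 40.3 and at 73.6 and 43.7, or 1.05-fold and 1.08-fold apart with the order reversed. ENP1, which stays with the small subunit precursor to the cytoplasm, KRR1, an RNA-binding protein, and SOF1 had 161 and 132, 178 and 106, and 119 and 59.97. UTP20, a large scaffold protein with a CDS of 7482 nt, had 28.4 and 27.0.

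The libraries split the reads of these genes unequally. Without any scaling, replicate 1 had between 6.64 reads (CBF5) and 29.1 reads (IMP3) for each read of replicate 2, and the depth ratio of 8.57 lies within that range. How many genes count as higher or lower therefore rests on the scaling. With edgeR's TMM scaling, which centres the bulk of CDSs and was set as the main choice, a two-sided exact binomial test with Benjamini-Hochberg adjustment over 5131 CDSs that averaged 10 reads or more separated 40 of the 48 genes, 26 higher and 14 lower in replicate 2. The same test called 44.4% of all CDSs tested, 24.3% as higher and 20.1% as lower. Against the CDS totals the split was 8 higher and 34 lower, with 71.2% of all CDSs called, 7.25% as higher and 63.9% as lower. The scalings differ by 0.60 on the log2 scale, since a CPM ratio of 0.661 is a fold of 1 under TMM. Calls under TMM also varied with density. From the least dense to the densest of 5 equal classes of CDSs, the share called higher rose from 3.41% to 62.8%. The share called lower was 8.88% in the least dense class, 28.1% in the middle class and 17.9% in the densest. That densest class holds 35 of the 48 genes.

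Under both scalings 8 genes were called higher and 14 lower in replicate 2. Those higher were NOP56, CBF5, NOP10, NSR1, RLP7, SPB1, RRP5 and SDA1. Their reads in replicate 1 for each read of replicate 2 ran from 6.64 to 7.52. Those lower were SNU13, GAR1, NHP2, YTM1, NOG2, RPF2, RRS1, BRX1, HAS1, UTP15, IMP3, IMP4, SOF1 and PWP2, with 14.6 to 29.1. Another 12 were higher under TMM and lower against the CDS totals, among them NOP1, NOP58, NOP2 and REA1, so no direction is given for them. Another 6 were higher under TMM and not called against the CDS totals, and 8 were lower against the CDS totals and not called under TMM. For all CDSs tested, the shares called under both scalings were not computed. They can be at most 7.25% higher, the share against the CDS totals, and 20.1% lower, the share under TMM. In the densest class, which holds 35 genes of this set, TMM alone called 62.8% of CDSs higher and 17.9% lower. Whether the calls under both scalings are particular to this set was not tested.

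**Figure D2:**
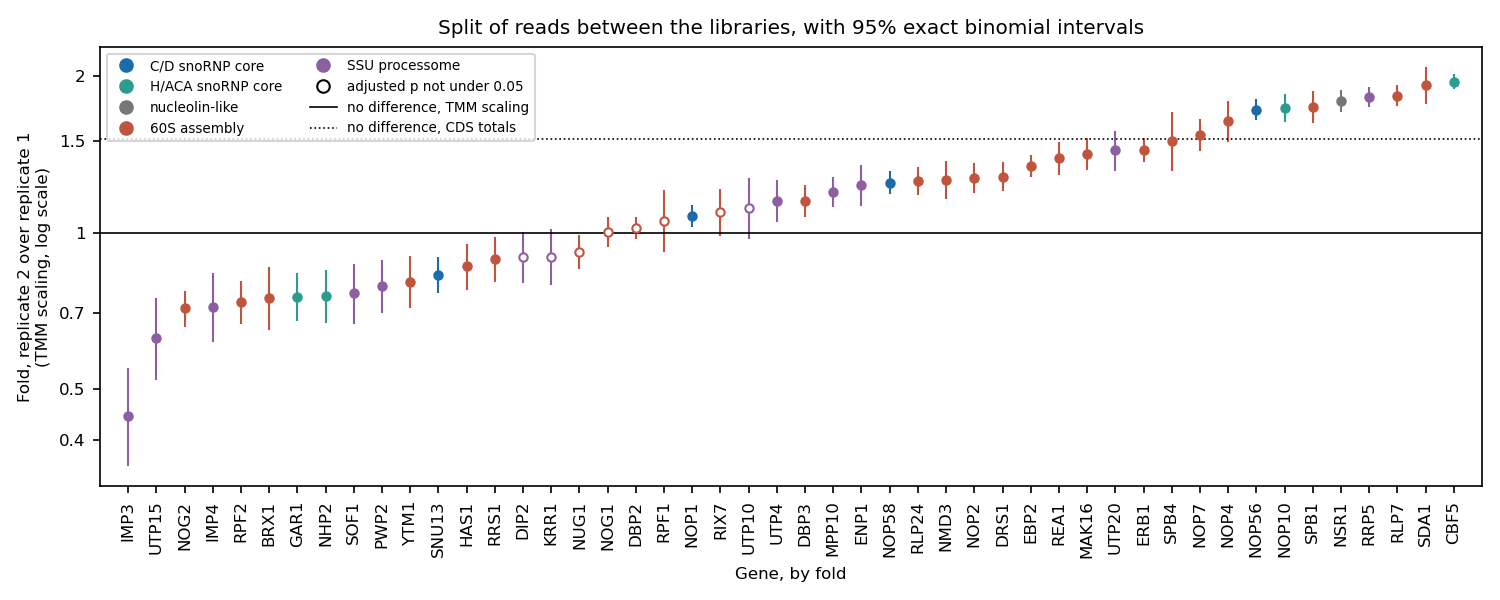
Fold of replicate 2 over replicate 1 after TMM scaling (vertical log axis) for each gene in order of fold, with 95% exact binomial intervals that cover counting error only; filled points have an adjusted p under 0.05. The solid line marks no difference under TMM and the dotted line no difference against the CDS totals; IMP3 at 0.445 and CBF5 at 1.95 are the extremes.

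The largest folds under TMM towards replicate 2 were those of CBF5, SDA1, RLP7, RRP5 and NSR1. CBF5 was 1.95-fold higher (adjusted p = 6.39e-291, exact binomial test; 95% exact interval 1.89 to 2.02) and still 1.29-fold higher against the CDS totals. SDA1, a factor needed for export of the large subunit precursor, had 4521 and 669 reads and was 1.92-fold higher (1.77 to 2.08). RLP7, RRP5 and NSR1 were 1.83-fold, 1.82-fold and 1.79-fold higher. In the other direction stood IMP3, UTP15, NOG2, IMP4 and RPF2. IMP3 was at 0.445-fold (adjusted p = 1.52e-16, exact binomial test; interval 0.356 to 0.550), and UTP15 with 2667 and 129 reads at 0.627-fold (0.521 to 0.748). NOG2 had 11932 and 658 reads and was at 0.715-fold, IMP4 at 0.718-fold and RPF2, with 8073 and 458 reads, at 0.735-fold.

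Within some particles the partners split their reads differently. In the H/ACA core, replicate 1 had 17.2 (95% exact interval 15.5 to 19.2) and 17.1 (15.3 to 19.3) reads per read of replicate 2 for GAR1 and NHP2, but 6.64 (6.43 to 6.87) for CBF5 and 7.46 (7.02 to 7.93) for NOP10, a contrast within the particle that no scaling of whole libraries alters. In the MPP10 module the ratio was 10.8 (10.1 to 11.6) for MPP10 against 29.1 (23.6 to 36.4) for IMP3 and 18.0 (15.5 to 21.1) for IMP4. ERB1 and NOP7, at 8.999 and 8.42, stood apart from YTM1 at 16.1 (14.4 to 18.1). RRS1 and RPF2 at 14.6 and 17.6, and DIP2 and PWP2 at 14.5 and 16.4, had overlapping intervals. Of the 4 Brix genes 3 were lower in replicate 2 under both scalings, and RPF1, with 2807 and 228 reads, did not pass the test under TMM.

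As a set the genes lay somewhat above the centre of the ratios. Their median log2 ratio under TMM was 0.20, against -0.05 over all CDSs tested, and 31 of the 48 exceeded the median of all. Against the CDS totals the medians were -0.39 and -0.61. Ratios rose with density across the genome, from a median of -0.22 in the least dense of these classes to 0.35 in the densest, where the 35 genes of this set had 0.26. By role the medians under TMM were 0.33 for large subunit factors and -0.15 for the SSU processome. Under TMM 5 of 13 SSU genes were higher and 5 lower, where 24.3% and 20.1% of all CDSs were so called. Against the CDS totals 1 was higher and 11 lower, where 7.25% and 63.9% of all CDSs were so called. The spread was wide: the SD of the log2 ratio among CDSs of the densest class was 0.56, and edgeR's common biological coefficient of variation was 27.3%. Shorter members had lower ratios, with a median of -0.27 for the 7 genes of up to 675 nt and 0.41 for the 12 genes above 2148 nt, where all CDSs had -0.01 and 0.05.

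Other ribosome assembly genes, a list of 112 that holds none of the 48, were read in both libraries without exception, at lower density. Their medians were 112 and 77.0. Under TMM 28 were higher, 40 lower and 44 not called, where 24.3% of all CDSs tested were called higher and 20.1% lower. The median log2 ratio of this list was -0.10. The densest was FPR3, a nucleolar prolyl isomerase, with 52003 and 7017 reads at 1795 and 2077. Its paralog FPR4 followed at 703 and 756 and TIF6, an anti-association factor of the large subunit, at 696 and 466. RRP15, DHR2 and RRP17 were least dense, at 12.9 and 12.6, 17.9 and 16.1, and 22.9 and 11.9. The largest folds were those of BUD23, an rRNA methyltransferase of the small subunit, at 2.17 (1.82 to 2.58), and ESF1 at 1.94 towards replicate 2, and of UTP6 at 0.407 (0.314 to 0.519) and PNO1 at 0.435 in the other direction. The 9 RNA polymerase I subunit genes, which transcribe the rRNA precursor, had median densities of 167 and 128, within the range of the assembly genes.

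Promoters of the 48 genes shared the PAC and RRPE sequences. The genes were not chosen by sequence, but these motifs are known from promoters of such genes, so frequent matches were foreseeable. For each CDS with a position, 300 bases of the genome build sacCer3, from 250 before the start codon to 50 after its first base, were searched on both strands for exact matches, and overlapping matches were allowed. The PAC motif was searched as GCGATGAG and as its core gatgag, and RRPE as AAAAATTTT and the shorter, palindromic AAAATTTT; each longer form contains the shorter one. The full PAC sequence lay in 28 of the 48 windows, or 58.3%, against 3.94% of 5992 windows of all CDSs. The PAC core lay in 46 (95.8% against 20.4%) and the longer RRPE in 40 (83.3% against 6.99%). Both the PAC core and the longer RRPE lay in 38, or 79.2%, against 3.59% of all windows. None of the 48 lacked both.

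These stretches show the closest PAC core and RRPE of several genes on the strand of the gene, 12 bases beyond each end, in lower case with matches to the PAC forms and to the longer RRPE in capitals; GATGAG or CTCATC marks PAC on one strand or the other. They were picked to show the orders and spacings found. RRPE comes before PAC in the first 5 lines and PAC before RRPE in the next 3. The following 5 are snoRNP core genes, all with RRPE first, and the widest spacing is last. The snoRNP core genes NOP56 and SNU13, not printed, have PAC first.
PWP2 at chrIII:223355-223395, minus strand: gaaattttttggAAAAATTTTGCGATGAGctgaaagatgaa
NOP7 at chrVII:695264-695305, plus strand: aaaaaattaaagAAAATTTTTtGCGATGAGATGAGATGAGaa
DRS1 at chrXII:131579-131627, plus strand: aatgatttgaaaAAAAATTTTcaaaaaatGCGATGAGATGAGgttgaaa
BRX1 at chrXV:186852-186895, minus strand: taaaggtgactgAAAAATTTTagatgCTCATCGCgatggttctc
REA1 at chrXII:363926-363972, minus strand: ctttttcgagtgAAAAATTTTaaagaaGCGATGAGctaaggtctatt
NOG1 at chrXVI:370823-370867, plus strand: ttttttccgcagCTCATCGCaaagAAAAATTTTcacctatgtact
DIP2 at chrXII:399518-399562, plus strand: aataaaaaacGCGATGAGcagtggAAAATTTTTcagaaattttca
DBP2 at chrXIV:413472-413514, plus strand: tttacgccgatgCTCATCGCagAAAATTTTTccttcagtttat
CBF5 at chrXII:505977-506020, plus strand: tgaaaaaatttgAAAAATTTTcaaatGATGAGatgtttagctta
GAR1 at chrVIII:283406-283447, minus strand: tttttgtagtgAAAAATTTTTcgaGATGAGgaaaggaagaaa
NHP2 at chrIV:87377-87427, plus strand: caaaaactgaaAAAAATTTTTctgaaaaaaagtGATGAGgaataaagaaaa
NOP1 at chrIV:427127-427177, plus strand: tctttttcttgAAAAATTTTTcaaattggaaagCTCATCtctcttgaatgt
NOP58 at chrXV:898465-898507, minus strand: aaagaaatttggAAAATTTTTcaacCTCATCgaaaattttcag
HAS1 at chrXIII:851680-851769, minus strand: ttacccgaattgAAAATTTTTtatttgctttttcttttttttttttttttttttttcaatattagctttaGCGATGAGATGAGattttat

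The motifs lay close together and at a similar distance from the start codon. Among the 38 genes with both, the centres of the closest PAC core and RRPE were a median of 14 nt apart, from 9.5 in PWP2, NOG2, MAK16 and RRP5 to 58.5 in HAS1, and 30 pairs lay within 20 nt. In the 125 windows with both motifs outside this set and the other assembly list the median was 23.5 nt and 40% lay within 20 nt. RRPE came first, farther from the start codon, in 31 of the 38 and in 67 of those 125. In the other assembly list 52 windows held both, at a median of 21.5 nt, with 44.2% within 20 nt. RRPE came first in 45 of those 52, so that order was not particular to the 48 genes. Of the 28 matches to the full PAC sequence in the 48 genes, 71.4% began between 150 and 100 nt before the start codon, against 42.0% of the matches over all CDSs, and 15 lay on the strand of the gene and 13 on the other. In UTP4 the PAC match lay inside the coding sequence, and 7 of the 48 upstream stretches hold coding sequence of a neighbouring gene. A match is a description of the letters and not evidence of a bound factor.

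Full PAC was unevenly spread over the roles. It lay in 19 of 26 large subunit factors, 8 of 13 SSU processome genes and NSR1, but in none of the 8 snoRNP core genes. All 8 of these held the shorter core, and 7 held the longer RRPE, the exception being NOP10. SPB1 and UTP15 held no PAC core, though both held RRPE. Genes with the full PAC were less dense, with medians of 182 and 125 over 28 genes, than the 20 without it, with 421 and 249, and all 8 snoRNP core genes are among the latter. Within the large subunit factors the medians were 200.04 and 165 for the 19 genes with it and 368 and 259 for the 7 without it. Within the SSU processome they were 131 and 67.4 for 8 genes and 119 and 59.97 for 5, so the order was the reverse there. These differences were not tested. The other assembly list held the full PAC in 46.4% of its windows and the longer RRPE in 52.7%, and the 9 RNA polymerase I genes in 33.3% and 77.8%. Ribosomal protein genes lay on the other side, with 0.725% and 4.35% of 138 windows, below the shares of all CDSs. Of the 99 windows in the genome with both the full PAC and the longer RRPE, 23 belong to the 48 genes and 28 to the other assembly list, together 51.5%.

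**Figure D3:**
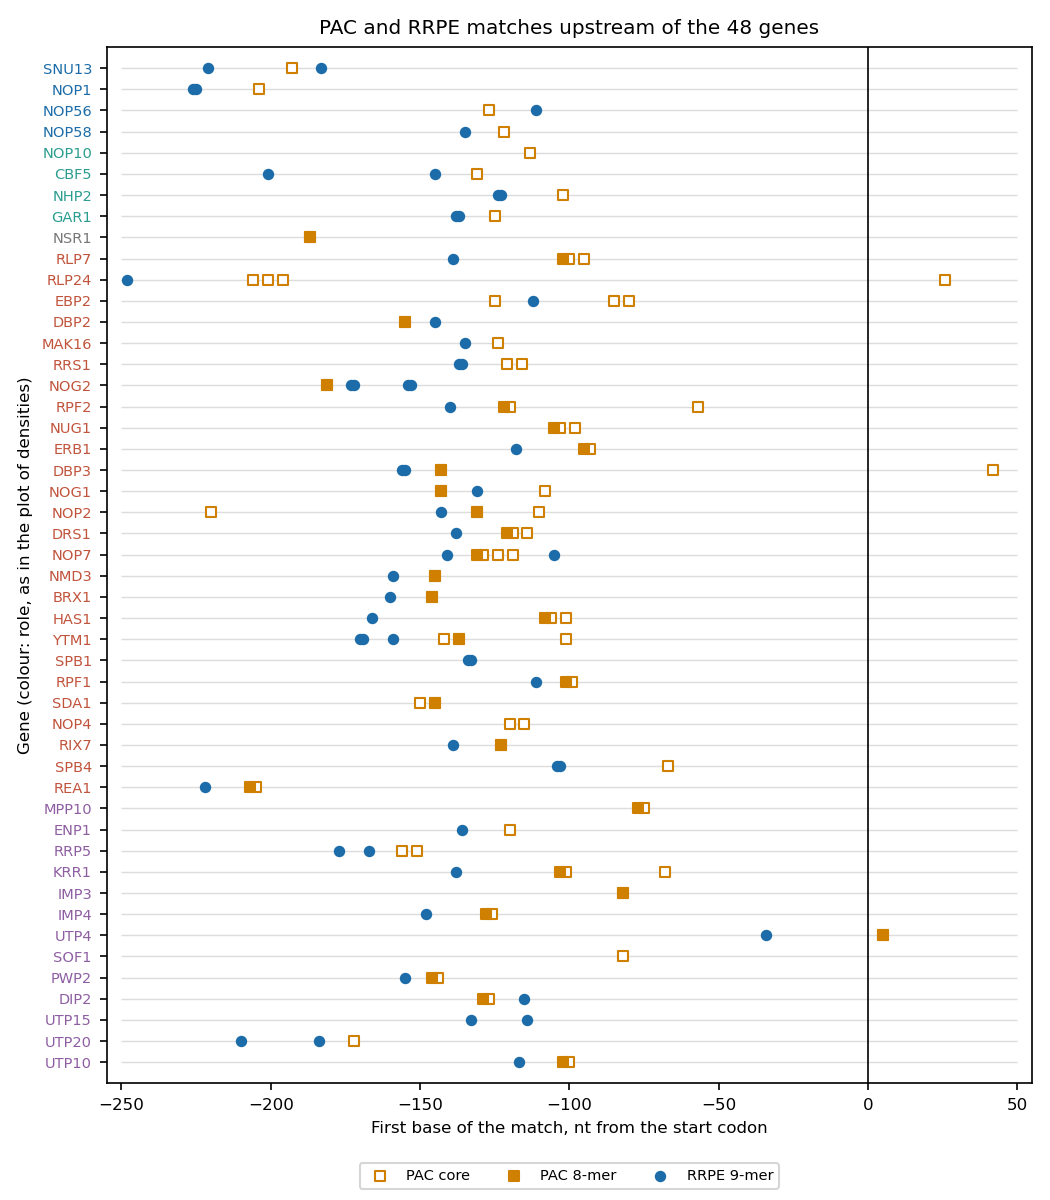
Position of each match relative to the start codon (horizontal axis, nt; the line at 0 is the first base of the CDS) in each of the 48 genes; filled squares are the full PAC (PAC 8-mer), open squares its core, and circles the longer RRPE (RRPE 9-mer). Most matches fall in a band before the start codon, with 71.4% of the 28 full PAC matches between 150 and 100 nt before it.

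**Figure D4:**
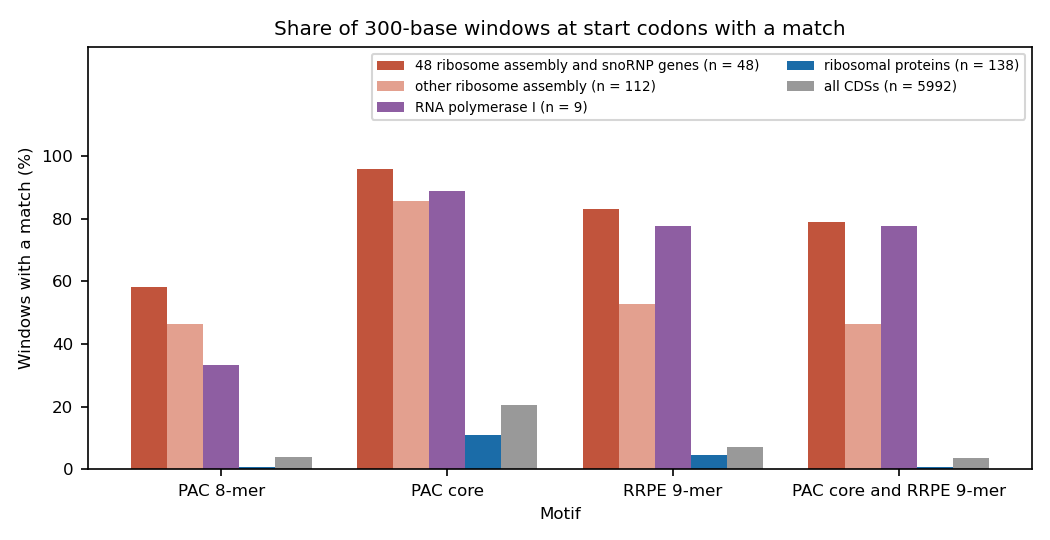
Percentage of 300-base windows with at least 1 match (vertical axis) for each motif, in the 48 genes, in the lists of other assembly genes, RNA polymerase I and ribosomal proteins, and in all CDSs. The full PAC is at 58.3% in the 48 genes and at 0.725% in ribosomal protein genes, and both motifs together are at 79.2% and 0.725%.

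Of the 4 roles with several genes, median codon use gave the same order as median density in replicate 1; in replicate 2 the H/ACA core was denser than the C/D core. The codon adaptation index, which runs to 1 for a gene that uses only the codons preferred in ribosomal protein genes, had a median of 0.314 over the 48 genes and 0.217 over all CDSs. Medians were 0.530 for the C/D core, 0.466 for the H/ACA core, 0.320 for large subunit factors and 0.250 for the SSU processome. SNU13 was highest at 0.702, followed by NOP1 at 0.578 and NSR1 at 0.578, and SPB4 was lowest at 0.208. Over the 48 genes the index and log2 mean density had r = 0.749 and rho = 0.801, against 0.620 and 0.484 over 5124 CDSs. RLP7, chosen after its values were seen, had densities of 692 and 839 at an index of 0.322. The base 3 before the start codon was A in 39 of the 48, or 81.3%, against 60.9% of all CDSs and 84.1% of ribosomal protein genes.

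**Figure D5:**
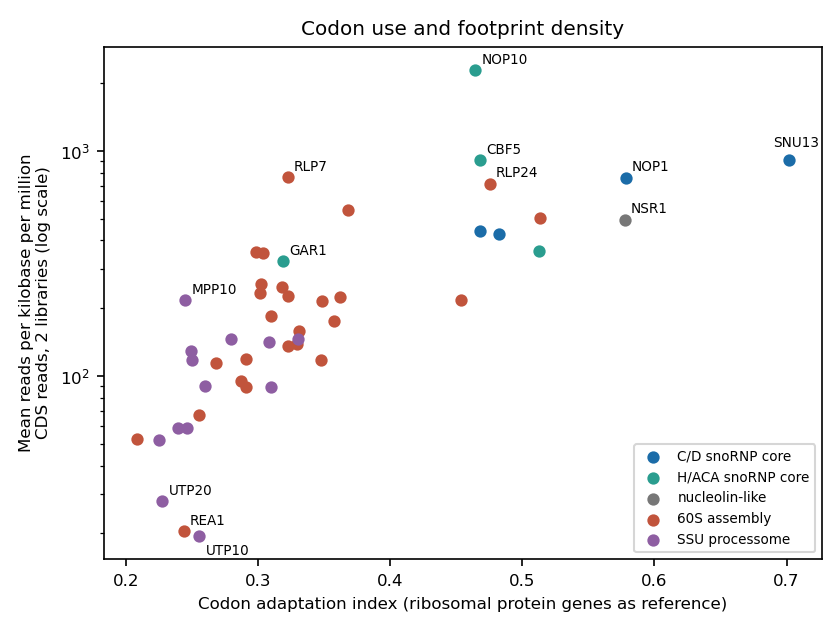
Codon adaptation index (horizontal axis, no unit) against mean footprint density of the libraries (vertical log axis, CPM per kilobase) for the 48 genes, coloured by role. SSU processome genes lie at indices up to 0.330 and C/D core genes at 0.468 to 0.702.

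Only NOG2 and DBP2 of the 48 have an intron in the annotation. That of NOG2, 532 nt on chromosome XIV, holds SNR191, an H/ACA snoRNA gene at 721938 to 722211 on the same strand. DBP2 has an intron of 1002 nt. The genes were otherwise scattered: GAR1 and RPF1, convergent neighbours 298 nt apart on chromosome VIII, were the only adjacent pair within the set, with 6269 and 364 reads for GAR1 and 2807 and 228 for RPF1. No CDS of the set overlaps another annotated CDS. In 44 of the 48 every 28-base stretch of coding sequence is unique in the genome, and in NOP1, the highest of the others, 2.68% of the stretches recur.

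Little was read just before these genes. Intergenic open reading frames (IGORFs), stretches between stop codons outside annotated genes, ended within 200 nt upstream of 46 of the 48 genes on their strand, 152 in all. They held 28 of the 4057 IGORF reads of replicate 1 and 126 of the 15116 of replicate 2. Such reads were found in both libraries at 4 genes, or 8.33%, against 7.58% of all CDSs with a position. Those genes were NHP2, SNU13, NOP1 and RLP24. The IGORF at NHP2 on chromosome IV, 87447 to 87509, ends 2 nt before the start codon, holds 1 in-frame ATG and had 14 and 28 reads. At SNU13 the IGORF from 101842 to 101928 on chromosome V had 9 and 42 reads, and a shorter one inside it, in another frame, 3 and 15, so the same reads may be counted in both. NOP1 had 1 and 22 reads and RLP24 1 and 6. IGORFs that overlap the CDS start of NOP1 and of RLP24 had 4 and 32, and 12 and 21. Both also overlap the upstream IGORF of the same gene, so the same reads may again be counted in both. The excess of IGORF reads in replicate 2 was general, with 2481 and 8745 reads upstream of all CDSs with a position, and opposite to the depth in CDSs. Whether each IGORF table belongs to the library it was deposited under could not be settled here, so the assignment of IGORF reads to a replicate is uncertain. The 13 SSU processome genes had 0 upstream IGORF reads in replicate 1 and 5 in replicate 2.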

How the data were processed

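For each library the authors deposited raw read counts, 1 per CDS or IGORF. The submitters' processing notes name cutadapt, Bowtie and SAMtools, with no version, and the build sacCer3. Not given in the sources used here: the counting tool, its strand setting, the annotation and how reads with several positions were treated. The reference used here is R64, of the same chromosome sequence, and 5993 of 6666 CDS identifiers were found in it; overlaps with the other 673 were not analysed here.

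CPM and densities used CDS totals. R 4.3.3 ran edgeR 4.0.16 for TMM factors, and DESeq2 1.42.0 gave the alternative size factors; other steps used Python 3.11.15, scipy 1.17.1 and pandas 2.3.3. CDSs averaging 10 reads or more were tested by a two-sided exact binomial test with Benjamini-Hochberg adjustment and a threshold of 0.05; log2 ratios had a pseudocount of 1 CPM. Exact (Clopper-Pearson) intervals cover counting error only, since they hold no term for variation between libraries. No molecular identifiers are described, so duplicate reads could not be told apart and even counting error may be understated. The test was tried on simulated counts with counting error only. Of 200 CDSs changed 1.5-fold it recovered 44.5%, and 85% at 2-fold, and it called no more than 0.142% of unchanged CDSs. Such counts hold no variation between libraries, so the trial cannot show how often the test errs on these libraries.

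The 48 genes, the gene lists and the tests were chosen with earlier results of these data known; motif spacing, codon use and the base before the start were added after values were seen. All 48 genes were to be described, with the extremes of each role, every complex and the 5 largest folds each way; of the other assembly genes, the 3 densest, the 3 least dense and the 2 largest folds each way were named.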

Additional observations from a re-analysis of the deposited data

How the results depend on the processing

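No paired analysis was possible because there is only 1 group. Of the 48 genes, 40 differed between the libraries with TMM scaling, where 2279 of 5131 CDSs tested did. With DESeq2 size factors 39 differed, beside 2263 of 5131 CDSs, and with a mean of at least 50 reads 41, beside 2290 of 4724. With at least 1 read 40 differed, beside 2247 of 5638 CDSs. Against the CDS totals, by the binomial or Fisher's exact test, 42 differed, beside 3652 of 5131 CDSs. The last setting moved the direction: the median log2 ratio of the set was 0.20 with TMM and -0.39 against the CDS totals, and stayed between 0.19 and 0.23 under the other settings, pseudocounts of 0.1 and 10 CPM included. These scalings differ because the CDS totals shift every ratio by the same amount. A log2 ratio above 0 with TMM and below 0 against the CDS totals, by either test, was found for 21 genes. Of these, 5 did not pass the test with TMM, which were NOG1 -0.59, RPF1 -0.52, DBP2 -0.56, UTP10 -0.44 and RIX7 -0.46 against the totals. The other 16 did, which were NOP1 -0.49, NOP58 -0.28, NOP2 -0.25, ERB1 -0.0698, RLP24 -0.27, MAK16 -0.0922, EBP2 -0.17, DBP3 -0.39, DRS1 -0.24, SPB4 -0.0116, UTP4 -0.39, UTP20 -0.0720, MPP10 -0.34, ENP1 -0.29, NMD3 -0.26 and REA1 -0.12. The median level of 277 CPM became 180 per kilobase and lay between 243 and 295 without either replicate. Genes with upstream IGORF reads numbered 4 in both libraries, from 4 to 10 without a replicate, 4 within 100 nt and 5 within 500 nt. Leaving out a library leaves no test between libraries. The PAC core was in 46 genes where the full motif was in 28, and the shorter RRPE in 44 in place of 40. Replicate 2, with the fewer reads, limits precision: IMP3 had 89 reads there, and its fold interval ran from 0.356 to 0.550.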
